A study of Mus musculus with 12 samples.

Results

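Regulators of G protein signalling, the RGS proteins, switch off signals from receptors that are coupled to heterotrimeric G proteins. A chemokine that binds its receptor loads the G protein alpha subunit with GTP, which frees the beta and gamma subunits to drive cell migration. The RGS domain speeds up GTP hydrolysis by the alpha subunit, so an RGS protein shortens and weakens the response to a chemokine. Lymphocytes use this brake to set how strongly they migrate towards chemokines of the T cell zone, the follicle and the tissues.

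The genes described were the 8 RGS genes Rgs1, Rgs2, Rgs3, Rgs10, Rgs14, Rgs16, Rgs18 and Rgs19, of 18193 genes with a probe set of their own. They were chosen by name as regulators of chemokine receptor signalling, with earlier results of these data known. They were read by 18 of the 45037 probe sets tested, from 1 for Rgs1, Rgs10 and Rgs14 to 4 for Rgs2 and Rgs3. RNA had been measured on 12 Affymetrix whole-genome mouse arrays, 3 for each of 4 populations of TCRb+ CD4+ B220- splenocytes of female MRL/Faslpr mice. This lupus-prone strain carries the lpr mutation of the death receptor gene Fas, so every population, naive cells included, carried it. CD62Llo PSGL1lo, CD62Llo PSGL1hi and CD62Lhi PSGL1hi cells were CD44+ effector cells of mice aged 16 to 24 weeks, and naive cells were CD62Lhi CD44lo cells of mice aged 6 to 8 weeks. CD62L and PSGL1 are homing molecules of the lymphocyte surface. The design asks how the effector populations differ from one another and from naive cells.

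Because naive cells came from younger mice, age and population cannot be told apart wherever naive cells are compared. Titles describe the 3 arrays of a population as technical replicates and the design text as separate sorts, so the p-values cover the spread between arrays, which may be technical. For CD62Llo PSGL1hi samples the labels conflict: the description gives the opposite gate, CD62Lhi PSGL1lo, while title and design text give the name used here. Whether mice were pooled for a sort is not given in the sources used here. Each value is a ratio to the probe set's own median on the 12 arrays, so it ranks the arrays for 1 probe set and says nothing about which of 2 genes is more abundant. Differences are on the log2 scale ± SE of a limma fit with 3 arrays a population, and a call means a Benjamini-Hochberg adjusted p under 0.05 over all probe sets. Among the gate genes, Selplg, which encodes PSGL1, averaged a ratio of 0.133 in CD62Llo PSGL1lo cells, 0.993 in CD62Llo PSGL1hi cells, 1.04 in CD62Lhi PSGL1hi cells and 1.10 in naive cells, and Cd44 averaged 1.27, 1.10 and 0.870 in those effector populations and 0.0791 in naive cells. Of 3 further Cd44 probe sets, 2 were also lowest in naive cells and the other was flat, at 0.963, 0.922 and 1.06 in the effector populations and 1.05 in naive cells. Fewer expressing cells and less RNA per cell cannot be told apart in sorted bulk samples.

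Of the 8 RGS genes, 7 differed among the 4 populations by the F test of limma, all but Rgs18, and so did 10 of their 18 probe sets. Of all probe sets, 23.7% passed the same test. That is a share of probe sets and not of genes, and the 8 genes were chosen with earlier results known. The changes did not run one way. Rgs16 was high in every effector population, Rgs1 was high in both effector populations that were PSGL1hi, and Rgs10 was low in these and high in CD62Llo PSGL1lo and naive cells. By the probe set chosen for each gene, Rgs2 and Rgs3 were higher, and Rgs14 and Rgs19 lower, in effector than in naive cells by smaller amounts. Not all further probe sets of Rgs2, Rgs3 and Rgs19 shared these calls.

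**Figure D1:**
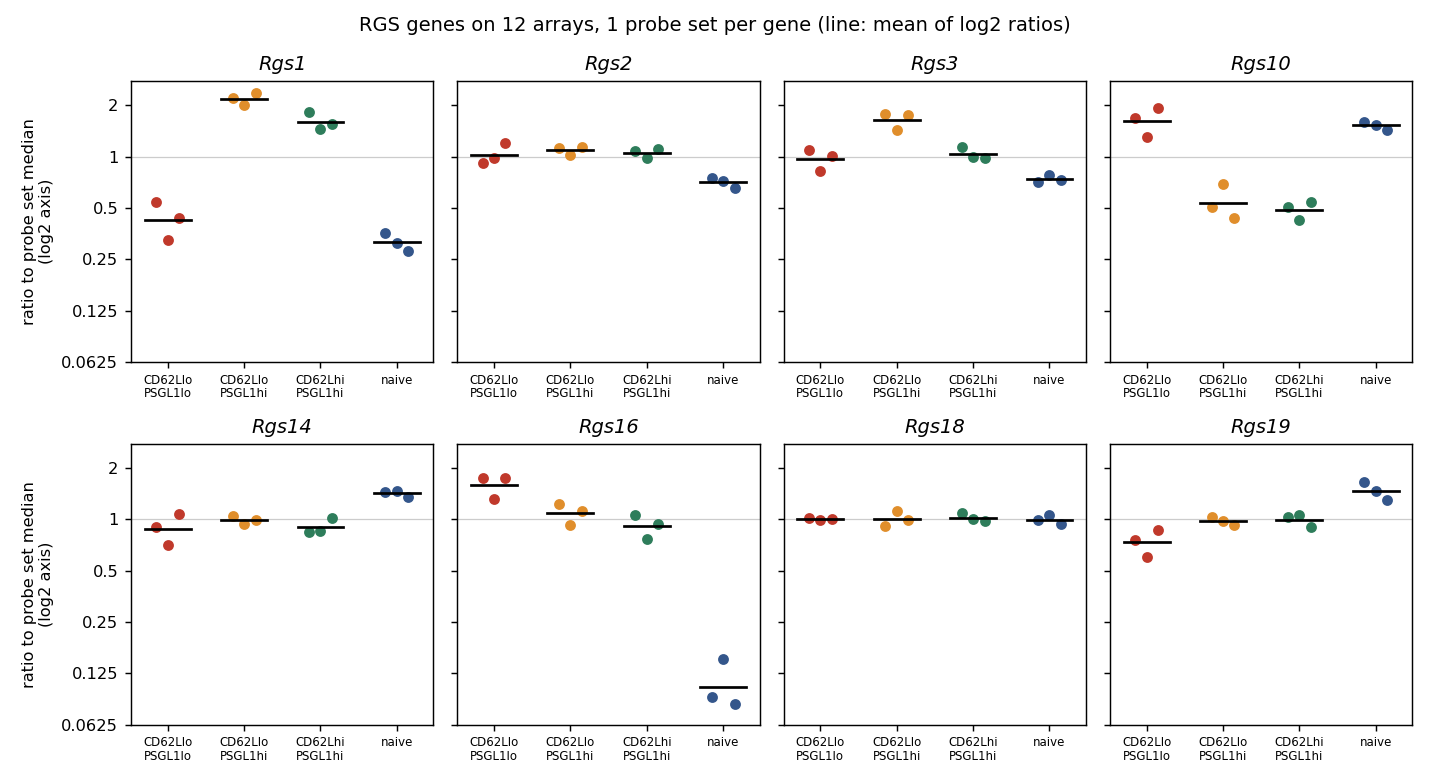
Ratio of the signal of each RGS gene to its own median over the 12 arrays (log2 axis), 1 point per array and 1 probe set per gene, with a line at the mean of the log2 ratios of each population. Rgs1 lies between 0.326 and 0.54 in CD62Llo PSGL1lo cells and between 2.002 and 2.348 in CD62Llo PSGL1hi cells, and Rgs10 shows the opposite order.

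Rgs16 encodes a small RGS protein that is switched on when T cells are activated and limits their migration to chemokines. It had ratios of 1.758, 1.311 and 1.739 in CD62Llo PSGL1lo cells, 1.231, 0.925 and 1.114 in CD62Llo PSGL1hi cells, 1.066, 0.768 and 0.934 in CD62Lhi PSGL1hi cells, and 0.0911, 0.151 and 0.0828 in naive cells. Every effector array was above every naive array, and every CD62Llo PSGL1lo array was above every array of the other populations. Against naive cells Rgs16 rose by 3.93 ± 0.21 in CD62Llo PSGL1lo cells, a 15.2-fold difference (adjusted p = 5.68e-09). It rose by 3.37 ± 0.21 in CD62Llo PSGL1hi cells (10.4-fold, adjusted p = 3.59e-08) and by 3.13 ± 0.21 in CD62Lhi PSGL1hi cells (8.76-fold, adjusted p = 9.75e-08). A second probe set was also called higher than in naive cells in every effector population, with log2 differences of 2.68 in CD62Llo PSGL1lo cells, 2.41 in CD62Llo PSGL1hi cells and 2.29 in CD62Lhi PSGL1hi cells, while another lay between 0.784 and 1.364 on all 12 arrays and was called in no comparison. Quantile normalization brought the differences of the chosen probe set from naive cells to 2.20 in CD62Llo PSGL1lo cells, 1.79 in CD62Llo PSGL1hi cells and 1.45 in CD62Lhi PSGL1hi cells, all still called.

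Among effector cells the order of Rgs16 was CD62Llo PSGL1lo, then CD62Llo PSGL1hi, then CD62Lhi PSGL1hi. CD62Llo PSGL1lo cells exceeded CD62Lhi PSGL1hi cells by 0.80 ± 0.21 (1.74-fold, adjusted p = 0.0209), a call lost without CD62Llo PSGL1lo replicate 1 (0.0638), CD62Llo PSGL1lo replicate 3 (0.0818) or CD62Lhi PSGL1hi replicate 2 (0.0842). The 2 further probe sets gave 0.39 (adjusted p = 0.159) and 0.12 (adjusted p = 0.835) and were not called. With the replicate block described next, the chosen probe set (adjusted p = 7.73e-05) and the first further one (0.0168) were called. The other further one was not (0.7475). The difference between CD62Llo PSGL1lo and CD62Llo PSGL1hi cells was 0.55 with a 95% interval of 0.11 to 1.00 and was not called (adjusted p = 0.147). With the replicate number as a block, the effector arrays were taken as paired. The difference was then called by the chosen probe set (adjusted p = 0.00203) and not by the 2 further ones (0.119 and 0.570). CD62Llo PSGL1hi and CD62Lhi PSGL1hi cells differed by 0.24 (95% interval -0.20 to 0.69) and were not called with or without the block (adjusted p = 0.301 and 0.808), although CD62Llo PSGL1hi cells were higher in all 3 pairs of arrays.

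Rgs1 encodes a small RGS protein of activated B and T cells that blunts responses to chemokines of lymphoid tissue. Its ratios were 0.54, 0.326 and 0.437 in CD62Llo PSGL1lo cells, 2.221, 2.002 and 2.348 in CD62Llo PSGL1hi cells, 1.833, 1.46 and 1.545 in CD62Lhi PSGL1hi cells, and 0.358, 0.312 and 0.281 in naive cells. The 6 PSGL1hi effector arrays stood above all the others, and only CD62Llo PSGL1lo and naive cells overlapped. The means were 0.434 ± 0.107 in CD62Llo PSGL1lo cells, 2.19 ± 0.175 in CD62Llo PSGL1hi cells, 1.61 ± 0.195 in CD62Lhi PSGL1hi cells and 0.317 ± 0.0387 in naive cells (SD, n = 3 each). CD62Llo PSGL1lo cells were below CD62Llo PSGL1hi cells by -2.36 ± 0.16 on the log2 scale, 5.14-fold lower (adjusted p = 4.22e-07), and below CD62Lhi PSGL1hi cells by -1.92 ± 0.16 (adjusted p = 1.89e-06). Against naive cells Rgs1 was 6.93-fold higher in CD62Llo PSGL1hi cells (2.79 ± 0.16, adjusted p = 2.01e-08) and 5.09-fold higher in CD62Lhi PSGL1hi cells (2.35 ± 0.16, adjusted p = 1.47e-07).

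The neighbours at each end of this order were less clearly separated. CD62Llo PSGL1lo exceeded naive cells in Rgs1 by 0.43 (95% interval 0.08 to 0.78) and were not called (adjusted p = 0.0822), although without CD62Llo PSGL1lo replicate 2 the difference was 0.62 and was called (adjusted p = 0.00552). CD62Llo PSGL1hi exceeded CD62Lhi PSGL1hi cells by 0.45 (95% interval 0.10 to 0.79, adjusted p = 0.339), and by 0.82 after quantile normalization (adjusted p = 0.00872). That normalization also gave -0.29 for CD62Llo PSGL1lo minus naive cells, not called (adjusted p = 0.253), and 1.70 for CD62Lhi PSGL1hi minus naive cells, still called.

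Rgs10 encodes a short RGS protein, little more than an RGS domain, that limits adhesion of T cells triggered by chemokines. It had ratios of 1.683, 1.307 and 1.921 in CD62Llo PSGL1lo cells, 0.508, 0.693 and 0.437 in CD62Llo PSGL1hi cells, 0.508, 0.423 and 0.542 in CD62Lhi PSGL1hi cells, and 1.591, 1.541 and 1.441 in naive cells. The PSGL1hi effector arrays were all below the CD62Llo PSGL1lo and naive arrays, whereas CD62Llo PSGL1lo and naive arrays overlapped, as did both PSGL1hi populations. CD62Llo PSGL1lo cells exceeded CD62Llo PSGL1hi cells by 1.59 ± 0.17 (3.02-fold, adjusted p = 2.49e-05) and CD62Lhi PSGL1hi cells by 1.73 ± 0.17 (3.31-fold, adjusted p = 7.89e-06). Against naive cells Rgs10 was 2.84-fold lower in CD62Llo PSGL1hi cells (-1.51 ± 0.17, adjusted p = 1.8e-05) and 3.12-fold lower in CD62Lhi PSGL1hi cells (-1.64 ± 0.17, adjusted p = 8.38e-06). CD62Llo PSGL1lo minus naive was 0.09 with a 95% interval of -0.28 to 0.45, and CD62Llo PSGL1hi minus CD62Lhi PSGL1hi was 0.13 with an interval of -0.23 to 0.50. After quantile normalization the called differences of Rgs10 were larger, at 2.79 for CD62Llo PSGL1lo minus CD62Llo PSGL1hi, 2.67 for CD62Llo PSGL1lo minus CD62Lhi PSGL1hi, -2.75 for CD62Llo PSGL1hi minus naive and -2.64 for CD62Lhi PSGL1hi minus naive.

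**Figure D2:**
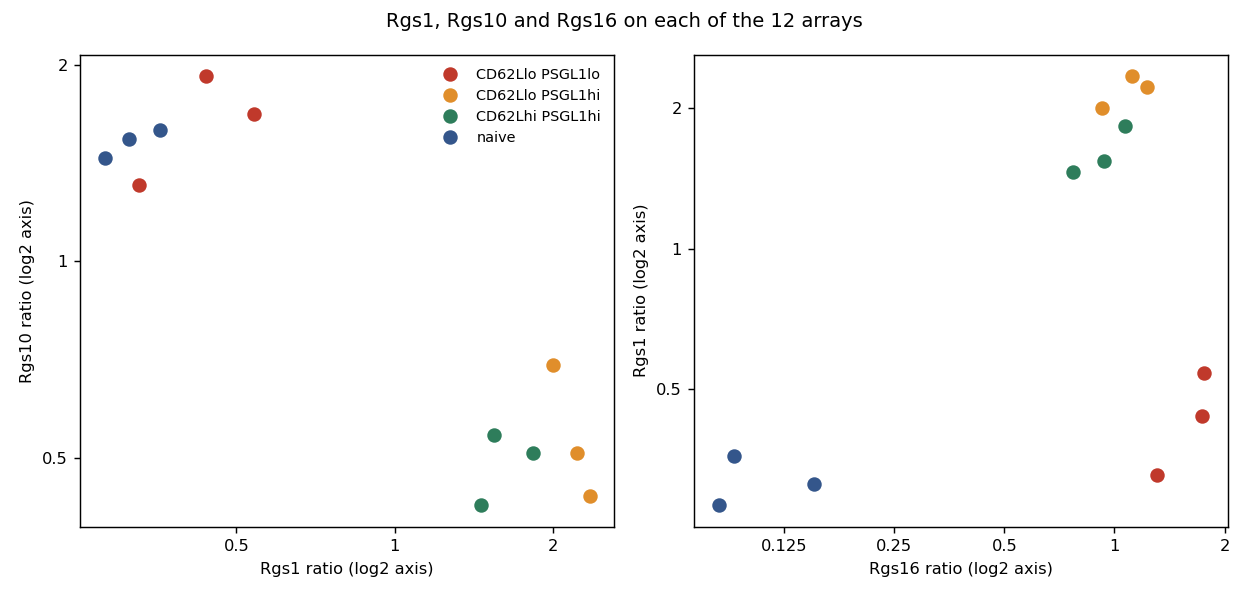
Ratios of Rgs10 against Rgs1 (left) and of Rgs1 against Rgs16 (right) on the 12 arrays, all on log2 axes and coloured by population. CD62Llo PSGL1lo arrays share low Rgs1 and high Rgs10 with naive arrays, and lie apart from them in Rgs16, between 1.311 and 1.758 against 0.0828 to 0.151.

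The promoters of Rgs16 and Rgs10 are shown because the first gene rose in every effector population and the second fell in both PSGL1hi ones. They come from RefSeq on build GRCm38.p6, run 5′ to 3′ on the strand of the gene, and hold 250 bases before and 50 bases after its start. Capitals mark matches on either strand to the GC box GGGCGG and to CACCC, the core bound by Krüppel-like factors.
Rgs16, chr1:153740103-153740402, plus strand: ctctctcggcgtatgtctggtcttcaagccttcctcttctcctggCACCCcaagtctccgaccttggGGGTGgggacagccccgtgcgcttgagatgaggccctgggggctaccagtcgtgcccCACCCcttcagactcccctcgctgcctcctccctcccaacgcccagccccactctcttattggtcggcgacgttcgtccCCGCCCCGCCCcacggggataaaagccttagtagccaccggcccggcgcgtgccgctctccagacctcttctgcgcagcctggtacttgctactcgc
Rgs10, chr7:128418123-128418422, minus strand: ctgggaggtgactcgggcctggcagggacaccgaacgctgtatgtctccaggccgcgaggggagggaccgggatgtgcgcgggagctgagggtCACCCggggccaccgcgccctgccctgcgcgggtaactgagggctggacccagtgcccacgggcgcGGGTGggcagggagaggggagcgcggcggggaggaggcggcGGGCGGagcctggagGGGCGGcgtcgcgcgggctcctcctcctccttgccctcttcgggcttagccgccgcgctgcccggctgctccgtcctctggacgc

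Both windows were rich in G and C, at 66% for Rgs16 and 76% for Rgs10, against a median of 52.7% over all promoters. Rgs16 held 3 CACCC matches, at 205, 183 and 126 bases before the start, and 2 GC boxes at 47 and 42 bases that overlap each other. Rgs10 held 2 CACCC matches, at 157 and 91 bases, and 2 GC boxes, at 50 and 35 bases. Of 32851 promoter windows of the same length, 57.5% held CACCC and 35.7% held the GC box. Neither window held the exact letters of the TATA box TATAAA, the AP-1 site TGANTCA or the NFAT core GGAAA, which 13.6%, 7.81% and 61.3% of all windows held. Sequences that only resemble these motifs were not searched. A match is a description of letters and no measure of binding.

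Rgs3 encodes a longer RGS protein with several isoforms that dampens chemokine signals in T cells. Its ratios were 1.092, 0.819 and 1.005 in CD62Llo PSGL1lo cells, 1.776, 1.442 and 1.751 in CD62Llo PSGL1hi cells, 1.142, 0.995 and 0.985 in CD62Lhi PSGL1hi cells, and 0.714, 0.777 and 0.732 in naive cells. The CD62Llo PSGL1hi arrays were above all others and the naive arrays below all others, with the other 2 populations overlapping between them. CD62Llo PSGL1lo cells were 1.71-fold below CD62Llo PSGL1hi cells (-0.77 ± 0.12, adjusted p = 0.000815), and CD62Llo PSGL1hi cells were 1.59-fold above CD62Lhi PSGL1hi cells (0.67 ± 0.12, adjusted p = 0.0128). The call between CD62Llo PSGL1hi and CD62Lhi PSGL1hi cells was lost without CD62Llo PSGL1hi replicate 1 (adjusted p = 0.0738), CD62Llo PSGL1hi replicate 3 (0.0659) or CD62Lhi PSGL1hi replicate 3 (0.0585).

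Against naive cells Rgs3 rose 2.23-fold in CD62Llo PSGL1hi cells (1.15 ± 0.12, adjusted p = 9.52e-06). It was also higher in CD62Lhi PSGL1hi cells (0.49 ± 0.12, adjusted p = 0.0119, but 0.119 after quantile normalization and 0.0579 without CD62Lhi PSGL1hi replicate 1). The difference for CD62Llo PSGL1lo cells (0.38 ± 0.12, adjusted p = 0.0406) lost its call under quantile normalization, with only both groups in the fit, and without CD62Llo PSGL1lo replicate 1 or 3, CD62Llo PSGL1hi replicate 3 or any naive array, at adjusted p of 0.0502 to 0.233. The 3 further probe sets of Rgs3 were called in none of the comparisons. For CD62Llo PSGL1hi minus CD62Lhi PSGL1hi they gave 0.42, 0.42 and 0.33. Against naive cells they gave 0.28, 0.27 and 0.41 in CD62Llo PSGL1hi cells and 0.03, 0.02 and 0.18 in CD62Llo PSGL1lo cells. In CD62Lhi PSGL1hi cells they gave -0.14, -0.15 and 0.08, so the first and second pointed the other way from the chosen probe set. Rgs3 calls therefore rest on 1 probe set of 4, and which isoforms each reads was not analysed here.

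Rgs2 encodes a small RGS protein with a preference for alpha subunits of the Gq class. It had ratios of 0.921, 0.978 and 1.202 in CD62Llo PSGL1lo cells, 1.12, 1.022 and 1.131 in CD62Llo PSGL1hi cells, 1.079, 0.976 and 1.111 in CD62Lhi PSGL1hi cells, and 0.754, 0.719 and 0.651 in naive cells. All effector arrays were above all naive arrays and the effector populations overlapped. Rgs2 rose against naive cells by 0.54 ± 0.11 in CD62Llo PSGL1lo cells (1.45-fold, adjusted p = 0.00289), 0.63 ± 0.11 in CD62Llo PSGL1hi cells (1.54-fold, adjusted p = 0.00113) and 0.58 ± 0.11 in CD62Lhi PSGL1hi cells (1.49-fold, adjusted p = 0.00216). CD62Llo PSGL1lo minus CD62Llo PSGL1hi was -0.09, with a 95% interval of -0.33 to 0.16. Of its 3 further probe sets, 2 were called higher in both PSGL1hi populations and the other lay between 0.779 and 1.184 on every array. For CD62Llo PSGL1lo minus naive cells those 2 gave 0.46 and 0.46 and were not called (adjusted p = 0.0528 and 0.119), but were without CD62Llo PSGL1lo replicate 2 (0.0114 and 0.00245). For 1 of them the call in CD62Lhi PSGL1hi against naive cells was lost after quantile normalization (adjusted p = 0.057). That call was also lost without CD62Lhi PSGL1hi replicate 1 (0.118), naive replicate 2 (0.0692) or naive replicate 3 (0.0997).

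Rgs19 encodes a regulator of the inhibitory alpha subunits that is tethered to membranes by palmitoylation. Its ratios were 0.76, 0.604 and 0.868 in CD62Llo PSGL1lo cells, 1.036, 0.973 and 0.926 in CD62Llo PSGL1hi cells, 1.027, 1.061 and 0.896 in CD62Lhi PSGL1hi cells, and 1.652, 1.461 and 1.306 in naive cells. Naive arrays were above all effector arrays, and CD62Llo PSGL1lo arrays below all the others. Against naive cells Rgs19 fell 1.99-fold in CD62Llo PSGL1lo cells (-0.99 ± 0.13, adjusted p = 7.16e-05), 1.5-fold in CD62Llo PSGL1hi cells (-0.59 ± 0.13, adjusted p = 0.00679) and 1.48-fold in CD62Lhi PSGL1hi cells (-0.56 ± 0.13, adjusted p = 0.00846). Its second probe set, which can cross-hybridise, was called lower in CD62Llo PSGL1lo cells alone (-0.86, adjusted p = 0.0254), and not without CD62Llo PSGL1lo replicate 2 (0.0984), CD62Llo PSGL1lo replicate 3 (0.0619) or naive replicate 1 (0.124), nor after quantile normalization (0.0584).

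Between effector populations the difference of Rgs19 stayed near the threshold. CD62Llo PSGL1lo minus CD62Llo PSGL1hi was -0.41 (95% interval -0.70 to -0.12, adjusted p = 0.0865), and -0.53 without CD62Llo PSGL1lo replicate 3 (adjusted p = 0.0346). CD62Llo PSGL1lo minus CD62Lhi PSGL1hi was -0.43 (95% interval -0.72 to -0.14, adjusted p = 0.0535), and was called with the replicate block (adjusted p = 0.0471), under either rescaling (0.0406 and 0.0399), with 1 probe set per gene (0.0371), and without CD62Llo PSGL1lo replicate 3 (0.0211) or CD62Lhi PSGL1hi replicate 3 (0.0451).

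Rgs14 encodes a scaffold that joins an RGS domain to a domain that binds Ras and Rap and to a motif that holds inhibitory alpha subunits in their GDP form. It had ratios of 0.902, 0.703 and 1.069 in CD62Llo PSGL1lo cells, 1.041, 0.942 and 0.987 in CD62Llo PSGL1hi cells, 0.846, 0.859 and 1.013 in CD62Lhi PSGL1hi cells, and 1.442, 1.456 and 1.36 in naive cells. The naive arrays were above all effector arrays, which overlapped. Rgs14 was 1.62-fold lower than in naive cells in CD62Llo PSGL1lo cells (-0.69 ± 0.13, adjusted p = 0.00162), 1.43-fold lower in CD62Llo PSGL1hi cells (-0.52 ± 0.13, adjusted p = 0.0142) and 1.57-fold lower in CD62Lhi PSGL1hi cells (-0.65 ± 0.13, adjusted p = 0.0031). For CD62Llo PSGL1hi cells the call was lost without CD62Llo PSGL1hi replicate 2 (adjusted p = 0.0573) or naive replicate 2 (0.0555).

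Rgs18 encodes an RGS protein best known from platelets and megakaryocytes. Its 2 probe sets stayed between 0.8 and 1.12 on all 12 arrays and were called in no comparison (F test adjusted p = 0.987 and 0.729). CD62Llo PSGL1lo minus naive was 0.01 for the first, with a 95% interval of -0.19 to 0.22. Without a detection call, the ratios do not tell whether these probe sets read above background. Of 12 platelet and megakaryocyte markers 10 had a probe set. None of these was called between effector populations, where 1.23% to 11.6% of all probe sets were called. Against naive cells 2 were called lower in CD62Llo PSGL1lo cells (11.5% of all genes) and 1 in CD62Llo PSGL1hi cells (9.15%). The median log2 ratio of the list lay between -0.07 and 0.15 on every array.

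**Figure D3:**
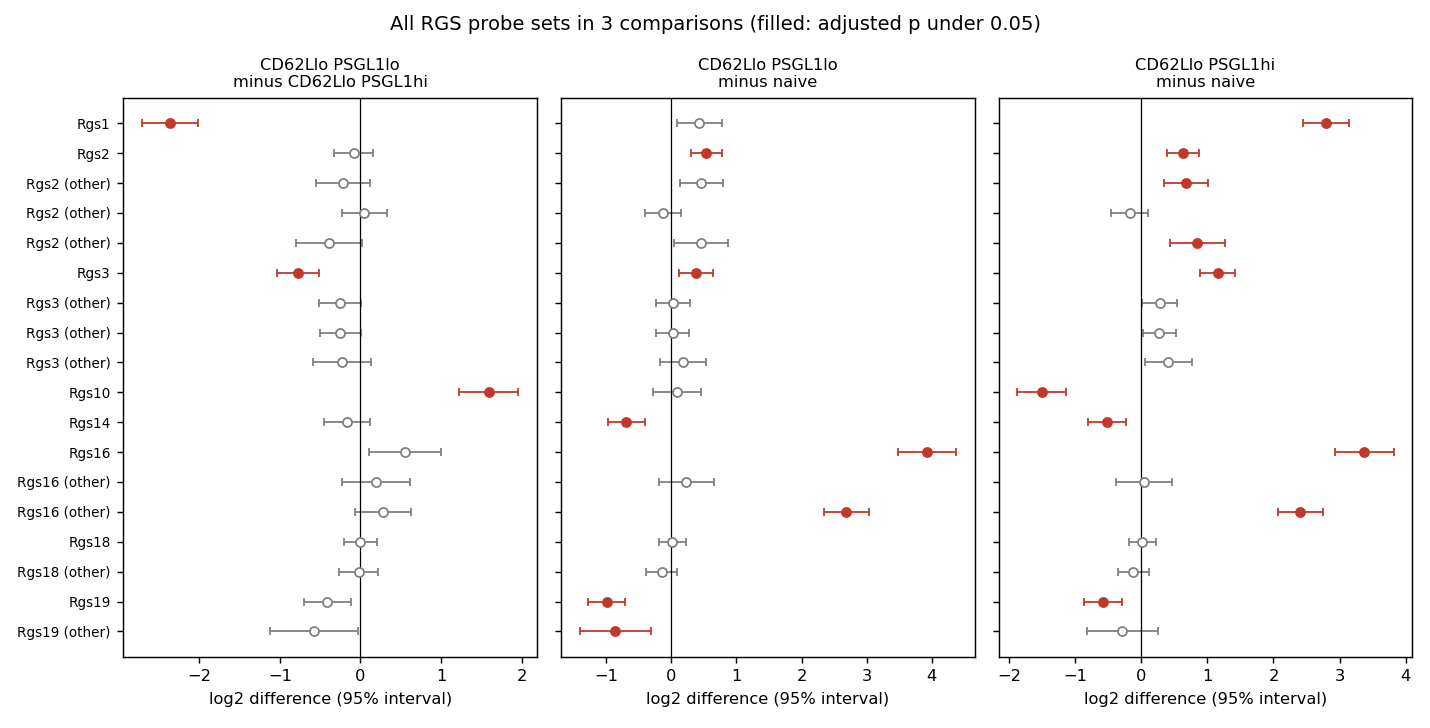
Log2 differences with 95% intervals of all 18 RGS probe sets in 3 comparisons, filled where the adjusted p was under 0.05. Further probe sets of a gene are marked as other. Rgs1 and Rgs10 point in opposite directions in CD62Llo PSGL1lo minus CD62Llo PSGL1hi cells, at -2.36 and 1.59.

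Counted by comparison, 3 of the 8 genes were called in CD62Llo PSGL1lo against CD62Llo PSGL1hi cells, where 8.38% of all probe sets were called. With 1 probe set per gene, 1 was higher (Rgs10) against 3.97% of all genes, and 2 were lower (Rgs1 and Rgs3) against 5.64%. CD62Llo PSGL1lo against CD62Lhi PSGL1hi cells also gave 3 calls, Rgs10 and Rgs16 higher and Rgs1 lower, where 11.6% of all probe sets were called. In CD62Llo PSGL1hi against CD62Lhi PSGL1hi cells 1 gene was called, Rgs3, where 1.23% of all probe sets were.

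Against naive cells, 5 of the 8 genes were called in CD62Llo PSGL1lo cells, where 20.1% of all probe sets were called. Of these, 3 were higher (Rgs2, Rgs3 and Rgs16) against 10.4% of genes, and 2 lower (Rgs14 and Rgs19) against 11.5%. In CD62Llo PSGL1hi cells 7 of 8 were called, where 17.3% of all probe sets were: 4 higher (Rgs1, Rgs2, Rgs3 and Rgs16) against 9.91% of genes, and 3 lower (Rgs10, Rgs14 and Rgs19) against 9.15%. CD62Lhi PSGL1hi cells gave the same 7 calls in the same directions, again where 17.3% of all probe sets were called. These 3 comparisons share the 3 naive arrays and are not independent of each other.

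Several of the genes lie side by side in the mouse genome. In the RefSeq order of coding genes on chromosome 1, Rgs2, Rgs13, Rgs1, Rgs21 and Rgs18 follow one another, and Rgs8 lies next to Rgs16 in a separate place. Members of the first cluster differed: Rgs1 spanned 0.281 to 2.348 over the 12 arrays, while Rgs18 was called in no comparison. The B cell regulator Rgs13, named as a neighbour after its values were seen, was called neither between CD62Llo PSGL1lo and CD62Llo PSGL1hi cells nor between either of them and naive cells. Rgs13 ratios were 1.219, 0.893 and 1.249 in CD62Llo PSGL1lo cells, against 0.941 to 1.048 in naive cells. Rgs3, Rgs10, Rgs14 and Rgs19 lie on chromosomes 4, 7, 13 and 2.

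Rgs8, which encodes a small RGS protein studied mainly in neurons, had ratios of 5.123, 3.939 and 5.422 in CD62Llo PSGL1lo cells, 0.891, 1.369 and 0.908 in CD62Llo PSGL1hi cells, 1.103, 0.995 and 0.84 in CD62Lhi PSGL1hi cells, and 0.784, 0.72 and 1.005 in naive cells. Its CD62Llo PSGL1lo arrays were above all the others, by 2.21 ± 0.18 over CD62Llo PSGL1hi cells (4.62-fold, adjusted p = 2.55e-06) and by 2.53 ± 0.18 over naive cells (5.78-fold, adjusted p = 1.49e-07). CD62Llo PSGL1hi minus naive was 0.32 and was not called (adjusted p = 0.275). Its neighbour Rgs16 was high in every effector population instead.

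**Figure D4:**
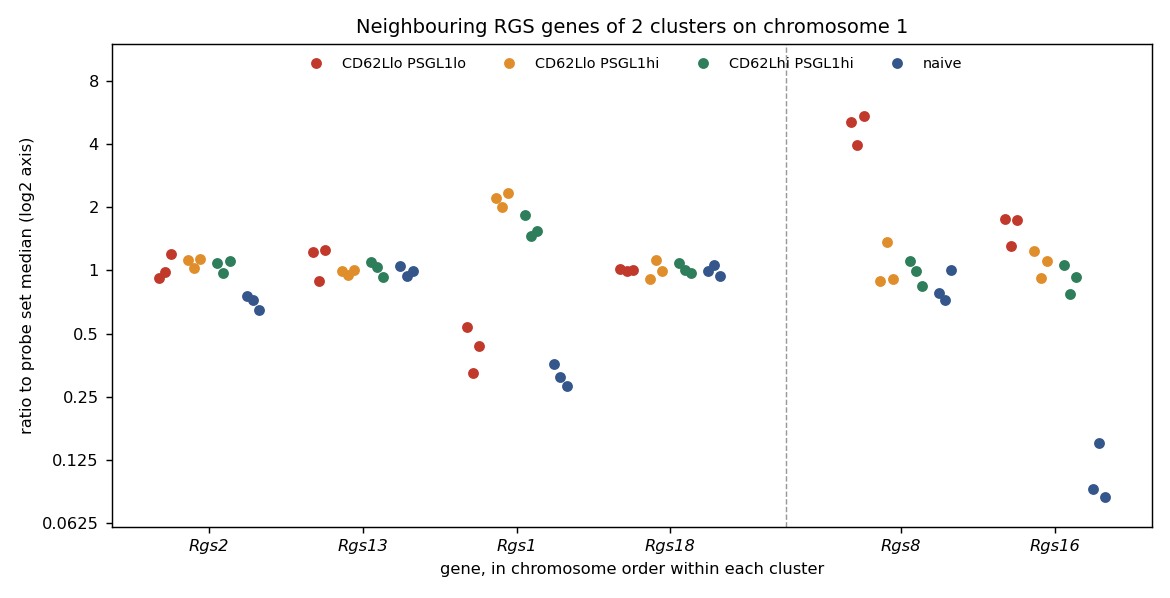
Ratios on the 12 arrays (log2 axis) of the RGS genes of both clusters on chromosome 1 that had a probe set, in chromosome order within each cluster, coloured by population. Rgs8 is above 3.9 in CD62Llo PSGL1lo cells only, while its neighbour Rgs16 is low in naive cells only.

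In the rest of the family, 15 of 18 genes had a probe set. Rgs8 was the 1 of these called higher in CD62Llo PSGL1lo cells than in the CD62Llo PSGL1hi population and none was lower, with a median of 0.08 against 0.01 over all genes, of which 3.97% were called higher and 5.64% lower. Against naive cells, 2 rose and 2 fell in CD62Llo PSGL1lo cells, and 0 rose and 2 fell in CD62Llo PSGL1hi cells. Over all genes the shares called were 10.4% higher and 11.5% lower in CD62Llo PSGL1lo cells, and 9.91% higher and 9.15% lower in CD62Llo PSGL1hi cells. Rgs11, a partner of the unusual beta subunit Gnb5, was 2.63-fold lower in CD62Llo PSGL1lo cells (-1.39 ± 0.10, adjusted p = 1.43e-07) and 2.18-fold lower in CD62Llo PSGL1hi cells (-1.12 ± 0.10, adjusted p = 1.9e-06) than in naive cells. Rgs9 was called higher in CD62Llo PSGL1lo than in naive cells (0.67 ± 0.14) and Rgs20 lower in CD62Llo PSGL1hi than in naive cells (-0.48 ± 0.10), each by 1 of 3 probe sets.

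RGS proteins act on the alpha subunits of G proteins. Of 13 alpha subunit genes, 2 were called higher and 1 lower in CD62Llo PSGL1lo cells when set against CD62Llo PSGL1hi cells (of all genes, 3.97% were higher and 5.64% lower), with a median of 0.12 against 0.01 over all genes. Gna14, of the Gq class, had ratios of 17.8, 11.01 and 12.94 in CD62Llo PSGL1lo cells, 1.656, 2.729 and 1.047 in CD62Llo PSGL1hi cells, and 0.528, 0.497 and 0.557 in naive cells. CD62Llo PSGL1lo cells were 8.12-fold higher than in CD62Llo PSGL1hi cells (3.02 ± 0.28, adjusted p = 7.39e-06) and 25.9-fold higher than in naive cells, and both further probe sets were called alike. Gna13, an alpha subunit that helps hold cells in the follicle, was 1.61-fold higher (0.69 ± 0.16, adjusted p = 0.0123), with all 6 further probe sets called the same way. Gna15 was the subunit called lower, by -0.997 ± 0.098 (adjusted p = 1.2e-05). Against naive cells 3 alpha subunits rose and 1 fell in CD62Llo PSGL1lo cells (10.4% and 11.5% of all genes), and 3 rose and 0 fell in CD62Llo PSGL1hi cells (9.91% and 9.15%).

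Of the beta and gamma subunits 15 of 16 had a probe set. In CD62Llo PSGL1lo against CD62Llo PSGL1hi cells 0 were called higher and 1 lower (3.97% and 5.64% of all genes). The lower one was Gnb4 (-0.40 ± 0.11, adjusted p = 0.044), not called by its 2 further probe sets. Against naive cells 3 rose and 2 fell in CD62Llo PSGL1lo cells (10.4% and 11.5% of all genes), and 3 rose and 2 fell in CD62Llo PSGL1hi cells (9.91% and 9.15%). Gng2, a gamma subunit, was 3.78-fold higher in CD62Llo PSGL1lo cells and 3.32-fold higher in CD62Llo PSGL1hi cells than in naive cells, and its 3 further probe sets gave 0.38 to 2.22 (3 called) and 0.11 to 1.59 (2 called). Gnb5, which pairs with RGS proteins of the Rgs11 group, was 3.25-fold higher in CD62Llo PSGL1lo cells and 2.89-fold higher in CD62Llo PSGL1hi cells than in naive cells by the chosen probe set, while its other probe set gave 0.07 and 0.04 and was not called.

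Chemokine receptors are the source of the signal that these regulators end. Of 16 receptor genes with a probe set, of 18 listed, 2 were called higher and 5 lower in CD62Llo PSGL1lo cells, set against CD62Llo PSGL1hi cells (of all genes, 3.97% were higher and 5.64% lower), with a median of -0.14 against 0.01 over all genes. Ccr2, an inflammatory homing receptor, was 21.6-fold lower (-4.43 ± 0.24, adjusted p = 4.85e-08), and its 3 further probe sets were also called lower, at -3.67 to -1.46. Ccr6 was 4.29-fold lower (-2.10 ± 0.18, adjusted p = 3.58e-06) and Cxcr3, the type 1 effector receptor, 3.24-fold lower (-1.70 ± 0.12, adjusted p = 5.05e-07). The higher ones, named after their values were seen, were Cxcr4 (1.20 ± 0.15, adjusted p = 0.000115) and the follicle-homing receptor Cxcr5 (0.99 ± 0.14, adjusted p = 0.000295).

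Beside these receptors, CD62Llo PSGL1lo cells had lower Rgs1 and Rgs3 and higher Rgs10 than CD62Llo PSGL1hi cells. Against naive cells 5 receptors rose and 2 fell in CD62Llo PSGL1lo cells (10.4% and 11.5% of all genes), with Cxcr5 28.1-fold, Cxcr3 14.1-fold and Cxcr4 9.12-fold higher. In CD62Llo PSGL1hi cells 8 rose and 2 fell (9.91% and 9.15% of all genes), with Cxcr3 45.8-fold, Cxcr6 38.2-fold and Cxcr5 14.2-fold higher. Whether receptor and regulator levels are linked was not tested.

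**Figure D5:**
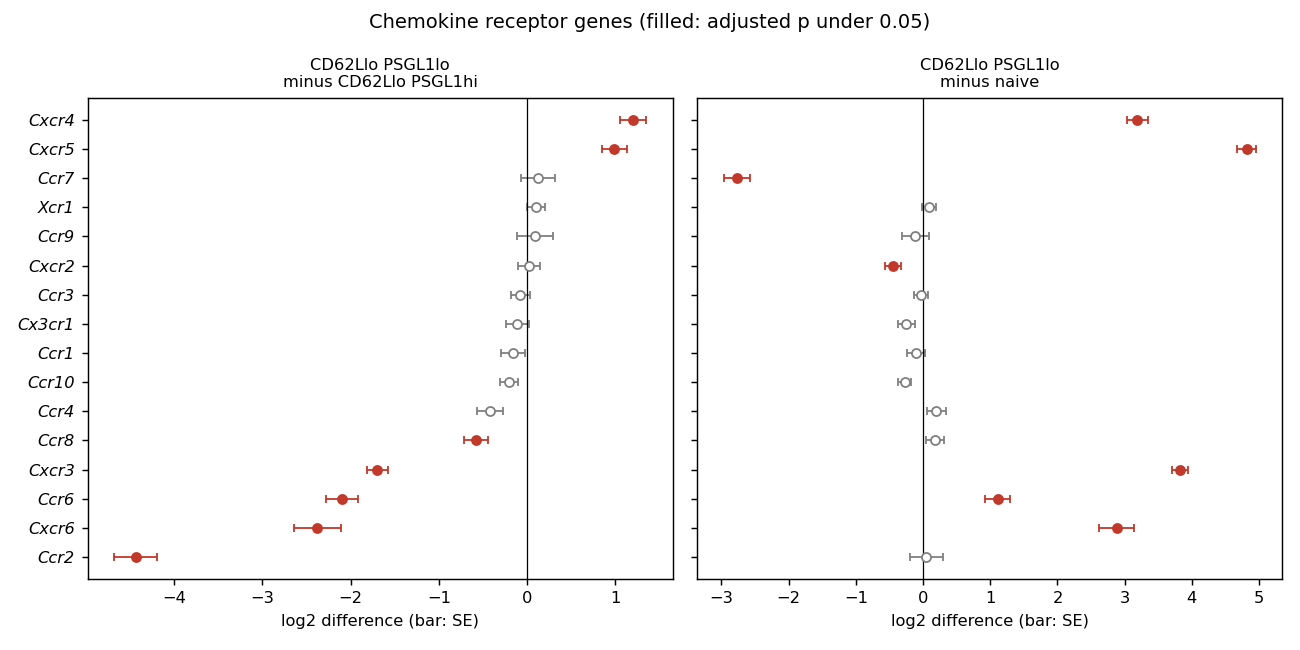
Log2 differences ± SE of the 16 chemokine receptor genes with a probe set, in CD62Llo PSGL1lo minus CD62Llo PSGL1hi cells (left) and CD62Llo PSGL1lo minus naive cells (right), filled where the adjusted p was under 0.05. Ccr2 is the lowest on the left at -4.43 and close to 0 on the right.

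Receptors for other ligands also signal through G proteins. Of 30 genes with a probe set, 2 were higher and 11 lower in CD62Llo PSGL1lo cells, compared with CD62Llo PSGL1hi cells (3.97% and 5.64% of all genes), with a median of -0.10. S1pr2, a receptor that signals through Gna13 and confines cells to the follicle, was 3.05-fold higher (1.61 ± 0.15, adjusted p = 7.45e-06), also by its second probe set. Gpr15, a gut-homing receptor, was 6.90-fold lower (-2.79 ± 0.28) and Gpr18 2.92-fold lower (-1.55 ± 0.13). Against naive cells 5 rose and 7 fell in CD62Llo PSGL1lo cells (10.4% and 11.5% of all genes), with Lpar3 11.6-fold higher and Cnr2 8.74-fold lower, and 10 rose and 4 fell in CD62Llo PSGL1hi cells (9.91% and 9.15%).

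Receptor kinases and arrestins brake the same receptors from the receptor side. Of 6 genes of receptor kinases and arrestins, 0 were called higher and 1 lower in CD62Llo PSGL1lo cells against CD62Llo PSGL1hi cells (3.97% and 5.64% of all genes). The lower one was Grk5, a kinase that tags active receptors for arrestin, by -0.69 ± 0.14 (adjusted p = 0.00428), with its second probe set at -0.65. Against naive cells Grk5 was 2.35-fold higher in CD62Llo PSGL1lo cells and 3.79-fold higher in CD62Llo PSGL1hi cells, while Grk6 was 2.02-fold lower in CD62Llo PSGL1lo cells and 1.74-fold lower in CD62Llo PSGL1hi cells. None of 9 other modulators of the G protein cycle was called in CD62Llo PSGL1lo against CD62Llo PSGL1hi cells, where 3.97% of all genes were higher and 5.64% lower. Of these 9, Gpsm2, which like Rgs14 holds inhibitory alpha subunits in their GDP form, was 3.52-fold lower in CD62Llo PSGL1lo cells and 3.06-fold lower in CD62Llo PSGL1hi cells than in naive cells.

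Downstream of the inhibitory G proteins, 3 of 30 migration genes were higher and 7 lower in CD62Llo PSGL1lo cells against CD62Llo PSGL1hi cells (3.97% and 5.64% of all genes), with a median of -0.12. Pik3r5, which recruits a lipid kinase to beta and gamma subunits, was 4.25-fold lower (-2.09 ± 0.13, adjusted p = 1.65e-07). Rasgrp2, an activator of Rap needed for integrin adhesion, was 3.12-fold lower (-1.64 ± 0.11, adjusted p = 3.37e-07), a call shared by 2 of its 3 further probe sets, the other giving -0.45. Adcy3, an adenylyl cyclase, was 2.12-fold lower (-1.08 ± 0.09, adjusted p = 2.71e-06). Against naive cells 7 rose and 10 fell in CD62Llo PSGL1lo cells (10.4% and 11.5% of all genes), with Tiam1 19.1-fold higher by 1 of its 3 probe sets and Rasgrp2 7.63-fold lower, and 6 rose and 5 fell in CD62Llo PSGL1hi cells (9.91% and 9.15%).

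The genes whose pattern over the 12 arrays was most like that of an RGS gene were ranked by Pearson correlation of log2 ratios, for the 3 RGS genes with the smallest F test p. The points share the 4 populations and the deposited scaling, and the values are a description. Rgs16 was most like Cd83 (r = 0.991), Il1r2 (0.989), Galm (0.989), Irf4 (0.988) and Cxcr5 (0.987). Rgs1 was most like Fasl (0.991), Havcr2 (0.988), Ccl4 (0.986), Chsy1 (0.986) and Nbeal2 (0.985). Rgs10 was most like Spsb1 (0.980), Sipa1l1 (0.977), Zfyve28 (0.976), Bzw2 (0.973) and St8sia1 (0.968).

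Marker lists of T cell states and other cells moved with the populations, and their part in the RGS differences was not tested. In CD62Llo PSGL1lo against CD62Llo PSGL1hi cells, 6 of 9 markers of follicular helper T cells, a list that holds Cxcr5, were called higher and none lower (3.97% and 5.64% of all genes). The median log2 ratio of that list over arrays ran from 1.04 to 1.52 in CD62Llo PSGL1lo cells, -0.04 to 0.47 in CD62Llo PSGL1hi cells, -0.30 to 0.04 in CD62Lhi PSGL1hi cells and -1.68 to -1.24 in naive cells. Of 8 regulatory T cell markers 0 were higher and 3 lower. The list medians were -0.00 to 0.03 in CD62Llo PSGL1lo cells, 0.15 to 0.34 in CD62Llo PSGL1hi cells and -1.22 to -1.002 in naive cells. In CD62Lhi PSGL1hi cells they were -0.0053 to 0.168, which overlaps both CD62Llo populations.

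Markers of other cell types were counted in the same comparison. Of 13 B cell markers 1 was higher and 2 lower, of 12 myeloid markers 0 and 1, of 8 markers of NK and CD8 T cells 0 and 2, and of 11 CD4 T cell markers 1 and 1, where 3.97% of all genes were higher and 5.64% lower. Against naive cells, in CD62Llo PSGL1lo cells 2 B cell markers rose and 4 fell, 2 myeloid markers rose and 6 fell, 0 NK and CD8 markers rose and 4 fell, and 3 CD4 T cell markers rose and 1 fell (10.4% and 11.5% of all genes). In CD62Llo PSGL1hi cells 2 B cell markers rose and 2 fell, 1 myeloid marker rose and 5 fell, 1 NK and CD8 marker rose and 3 fell, and 7 CD4 T cell markers rose and 0 fell (9.91% and 9.15%). All 9 follicular helper markers rose in CD62Llo PSGL1lo cells and 7 in CD62Llo PSGL1hi cells, as did 4 and 6 of the 8 regulatory ones, of which 2 and 1 fell. List medians in CD62Llo PSGL1lo and CD62Llo PSGL1hi arrays lay between -0.13 and 0.01 for B cells, -0.33 and 0.10 for myeloid cells, -0.36 and 0.04 for NK and CD8 T cells, and -0.13 and 0.23 for CD4 T cells. In naive arrays they lay between 0.04 and 0.22, 0.24 and 0.36, 0.05 and 0.23, and -0.24 and -0.10 in the same order of lists. Each ratio is relative to the probe set's own median and comes without a detection call, so absence of a marker cannot be read from it.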

How the data were processed

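MAS5 made the signals, per the submitters' processing notes; neither its version nor its scaling is given in those notes. The deposited values were linear ratios: for 99.7% of 45101 probe sets the median over the 12 arrays was within 0.002 of 1, and no value was 0 or below. Brightness, background and detection calls cannot be read from these ratios, so the number of arrays limits the precision. Ratios were taken to log2 and 45037 probe sets, without 64 array controls, were fitted with limma 3.58.1 in R 4.3.3 (lmFit, eBayes) with 1 mean per population, giving an F test and 6 two-sided comparisons. The fit had 8 residual and 5.54 prior degrees of freedom, and the median SE was 0.120. GEO's platform annotation named a single gene for 34945 probe sets. Each gene was represented by its lowest-numbered probe set, preferring those whose name carries no suffix for possible cross-hybridisation and then those designed on a curated RefSeq transcript; all others were reported beside it. Samples were grouped by their titles, also where a description differed.

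Named genes were the RGS members, up to 3 called genes per pathway list and comparison with the smallest p, and the 5 genes most like each of 3 members; Rgs13, Cxcr4 and Cxcr5 were added after their values were seen. The members and lists were chosen with earlier results of these data known. Arrays with the same replicate number deviated together between effector populations (correlations of 0.138 to 0.451), so the numbers were taken to pair them. With naive arrays the correlations were -0.0817 to 0.157, a range that overlaps the first, and those arrays were not taken as paired. Arrays with different numbers were not compared in this way, so the pairing is an assumption. The main fit did not use it. The method was tested on simulated data. Promoters came from the RefSeq table on GRCm38.p6, which held Rgs2, Rgs3, Rgs10, Rgs16 and Rgs19.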

Additional observations from a re-analysis of the deposited data

How the results depend on the processing

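The alternatives were quantile normalization, median centring, 1 probe set per gene, array weights, robust eBayes, only the 2 compared groups in the fit, a replicate block and leaving out each array. Over the 8 genes, 995 of 1056 values kept their call and, where they had one, their direction. A further 13 gained a call, 18 lost it, 30 uncalled differences changed sign, and no call was reversed. The 1056 values include F tests, which have no direction. Several settings could change a call but not the difference itself, so agreement in direction was in part fixed in advance. These were 1 probe set per gene, robust eBayes, only 2 groups, the replicate block, and leaving out an array of a population not compared. In CD62Llo PSGL1hi against CD62Lhi PSGL1hi cells 2 RGS genes were called after quantile normalization, against 1. Leaving out single arrays gave 0 to 1 there, 3 to 4 in CD62Llo PSGL1lo against CD62Llo PSGL1hi cells, 2 to 4 when the same cells were set against CD62Lhi PSGL1hi cells, 4 to 6 in CD62Llo PSGL1lo against naive cells, and 6 to 7 in either other population against naive cells. With the replicate block fitted to the effector arrays alone, 4 genes were called in CD62Llo PSGL1lo against CD62Llo PSGL1hi cells. The same block gave 4 in CD62Llo PSGL1lo against CD62Lhi PSGL1hi cells and 1 between the PSGL1hi populations. For comparisons with naive cells all 12 arrays were blocked by number, although naive arrays were not taken as paired with the others. That block called 6 in CD62Llo PSGL1lo against naive cells, Rgs1 among them (adjusted p = 0.0199). For Rgs1 in that comparison median centring gave 0.0485 and array weights 0.00883. CD62Llo PSGL1lo replicate 2 had the lowest array weight, 0.364, and the lowest median ratio, 0.967. The cause of these shifts was not tested. A pseudocount and a filter on dim probe sets were not run, since the values are ratios above 0. Signal over background is unknown.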
